A study of Mus musculus with 7 samples.

Results

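Fc gamma receptors bind the constant part of immunoglobulin G (IgG) on the surface of myeloid cells, and the 5 genes described here were named by symbol: Fcgr1, Fcgr3 and Fcgr4 for the activating receptors, Fcgr2b for the inhibitory receptor, and Fcer1g for the signalling chain that the activating receptors share. They are 5 of the 25127 genes in the count table, and all 5 passed the minimum set on low counts in each of the 6 comparisons. Each was followed across the 7 libraries of the study and the authors' cell clusters, and set beside the antibody tags for the same receptors: CD64, taken by its name to stain the product of Fcgr1, CD16-32, taken to stain the products of Fcgr3 and Fcgr2b together, and CD16.2, taken to stain the product of Fcgr4. The labels name no antibody clones.

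Cells of C57/Bl6 mice had been enriched for CD11b, an integrin chain of myeloid cells, stained with 47 oligonucleotide-tagged antibodies, and sequenced for RNA and tags in the same droplets (CITE-seq). Naive mice without a tumor gave blood (814 cells), bone marrow (153 cells) and spleen (416 cells), and mice on day 14 of an LLC tumor, a Lewis lung carcinoma graft of the same strain, gave blood (354 cells), bone marrow (57 cells), spleen (579 cells) and the tumor tissue itself (1917 cells). The stated design text names magnetic enrichment for blood, spleen and tumor, and the labels give all 7 libraries as CD11b-enriched. Neither the number of mice behind a library nor their age, nor whether Fc receptors were blocked before staining, is given in the sources used here. Every tissue and state is 1 library, so no comparison of 2 libraries has a replicate: intervals are exact 95% intervals for counting error alone, and they are too narrow for a comparison of mice. The 1 test made takes the 3 tissues as blocks for tumor-bearing against naive mice. A library's sum mixes its cell types, so ratios within clusters are given beside those of libraries where both libraries hold enough cells. Unique molecular identifiers (UMIs) count captured RNA molecules, and levels are UMIs of a gene per 1000000 UMIs of the same cells (CPM).

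As background, the activating receptors signal through immunoreceptor tyrosine-based activation motifs (ITAMs) of the Fcer1g chain and drive phagocytosis and cytokine release when IgG-coated targets cross-link them, while the inhibitory receptor carries its own inhibitory motif (ITIM), recruits phosphatases and raises the threshold for that response. FcgammaRI, the product of Fcgr1, binds monomeric IgG with high affinity. The others bind immune complexes, and FcgammaRIV, the product of Fcgr4, is known from non-classical monocytes, neutrophils and macrophages. Interferon gamma is a textbook inducer of Fcgr1.

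Fcgr2b, Fcgr4, Fcgr3 and Fcer1g lie within 1 stretch of chromosome 1 in the mouse build GRCm38: Fcgr2b on the minus strand at chr1:170958617-170976547, Fcgr4 on the plus strand at chr1:171018920-171029761, Fcgr3 on the minus strand at chr1:171051174-171064935, and Fcer1g on the minus strand at chr1:171229572-171234365 (GENCODE M21 gene bounds). Fcgr1 lies apart, on the minus strand at chr3:96282909-96293969. Despite that, Fcgr1 and Fcgr4 were the pair of members whose levels went most closely together across clusters, with a Pearson correlation of log2(CPM + 1) of 0.86 over the 15 clusters of at least 50 cells, whereas Fcgr4 and its chromosomal neighbour Fcgr3 had 0.31. The clusters share libraries and depth, so this is a description.

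The promoter windows of Fcgr1 and Fcgr4, from 250 bases before to 50 after the RefSeq start site (GRCm38.p6, 5′ to 3′ on the gene's strand), are shown with that of Fcgr2b because the first pair went together and the inhibitory gene followed another order of clusters. Capitals mark matches to 3 motifs searched on both strands: TTCNNNGAA, the textbook STAT site, which reads the same on both strands, GAGGAA, the core bound by the myeloid factor PU.1, and an interferon response element, GAAA and again GAAA with 2 free bases between them. No matches overlapped in these windows.
Fcgr1: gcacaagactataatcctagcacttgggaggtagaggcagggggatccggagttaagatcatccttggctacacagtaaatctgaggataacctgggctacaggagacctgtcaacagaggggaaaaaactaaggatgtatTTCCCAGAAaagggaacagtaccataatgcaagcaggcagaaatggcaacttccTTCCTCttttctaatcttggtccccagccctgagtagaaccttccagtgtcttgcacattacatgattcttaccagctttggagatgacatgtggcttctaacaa
Fcgr4: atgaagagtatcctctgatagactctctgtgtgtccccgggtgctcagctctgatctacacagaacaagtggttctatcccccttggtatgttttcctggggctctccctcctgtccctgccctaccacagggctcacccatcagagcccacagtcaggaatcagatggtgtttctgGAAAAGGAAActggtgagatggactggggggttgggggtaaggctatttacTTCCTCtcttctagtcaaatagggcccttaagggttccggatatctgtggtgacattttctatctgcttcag
Fcgr2b: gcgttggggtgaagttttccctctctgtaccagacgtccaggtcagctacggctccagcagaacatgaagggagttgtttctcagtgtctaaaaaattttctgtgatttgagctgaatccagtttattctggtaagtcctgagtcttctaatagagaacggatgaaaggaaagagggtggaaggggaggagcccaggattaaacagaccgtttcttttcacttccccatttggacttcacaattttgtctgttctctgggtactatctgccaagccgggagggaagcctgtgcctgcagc
Their positions are chr3:96293920-96294219 for Fcgr1, chr1:171018676-171018975 for Fcgr4 and chr1:170976022-170976321 for Fcgr2b. The window of Fcgr1 held TTCCCAGAA, a match to TTCNNNGAA, 109 bases before the start, and GAGGAA on the opposite strand 55 bases before it. That of Fcgr4 held GAAAAGGAAA, a match to the interferon response element, 73 bases before the start and GAGGAA on the opposite strand 22 bases before it. Fcgr2b and Fcer1g held none of the 3 in this window, and Fcgr3 held GAGGAA alone. Of 32851 promoter windows of the same length in the table, 8.30% held TTCNNNGAA, 28.3% held GAGGAA and 3.44% the interferon response element, so a match is a description and not a shown site.

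Across tissues, the receptor genes were expressed at their highest in tumor tissue, while the shared chain was nearly level. Fcgr1 stood at 212 CPM in blood of naive and 179 in blood of tumor-bearing mice, at 193 and 154 in their bone marrow, at 144 and 138 in their spleens, and at 880 (868 to 893) in tumor tissue. The tumor library thus stood alone, and the intervals of neighbouring libraries in the remaining order overlapped at each step. Fcgr4, the least abundant of the 5, had 39.6 CPM in blood of naive and 68.1 in blood of tumor-bearing mice, 22.1 and 32.4 in their bone marrow, 36.0 and 50.4 in their spleens, and 143 (138 to 148) in tumor tissue. For this gene each tumor-bearing library was above the naive library of its tissue.

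Fcgr3 varied little: naive and tumor-bearing mice had 444 and 446 CPM in blood, 413 and 382 in bone marrow and 471 and 425 in spleen, and tumor tissue had 656 (645 to 667). The inhibitory Fcgr2b had, in naive and then tumor-bearing mice, 172 and 188 CPM in blood, 153 and 112 in bone marrow and 162 and 157 in spleen, against 464 (455 to 473) in tumor tissue. Fcer1g, the shared chain, was the most abundant of the 5 and the flattest, with 3628 and 3844 CPM in blood, 3390 and 3749 in bone marrow and 3505 and 3717 in spleen, in the same order, and 3817 (3790 to 3843) in tumor tissue. Tumor tissue thus lay inside the range of the other libraries for this gene alone. Its highest library was 1.13 times its lowest, against 6.40 times for Fcgr1 and 6.47 times for Fcgr4.

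**Figure D1:**
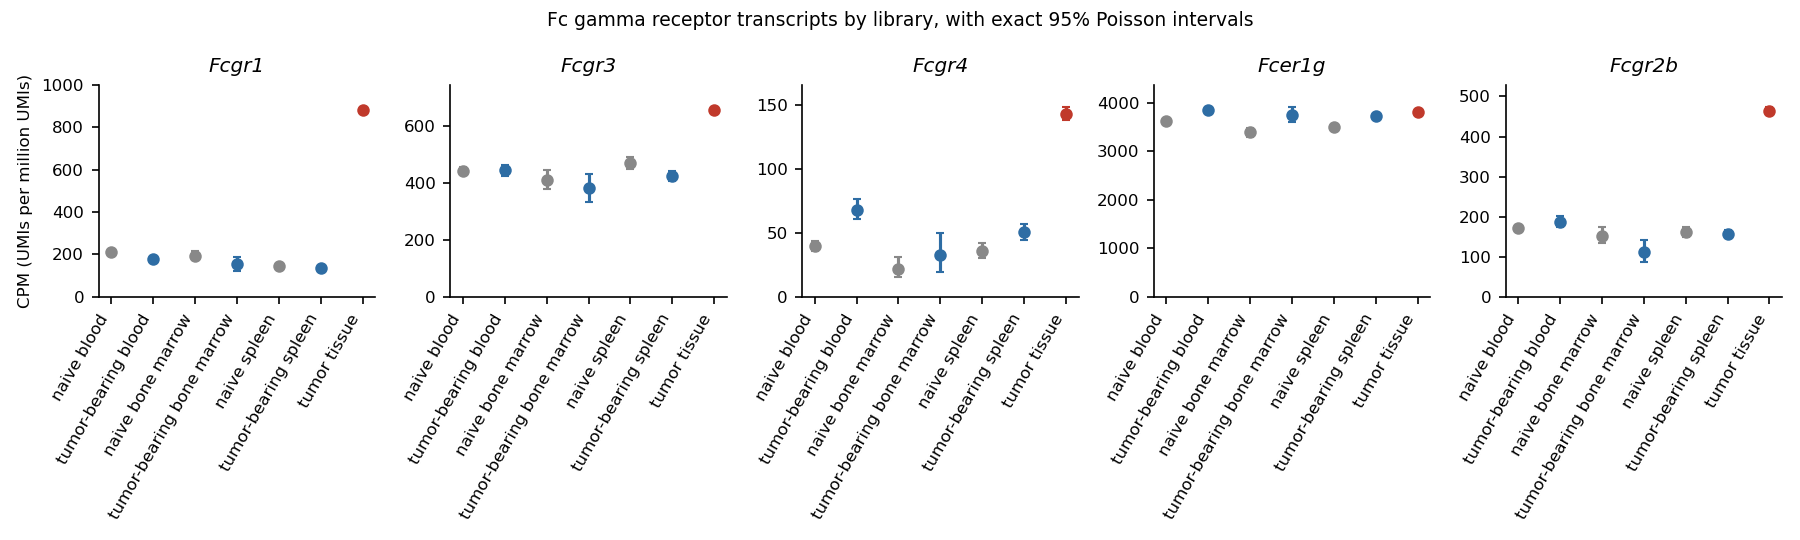
Level of each gene (vertical axis, CPM, starting at 0) in each of the 7 libraries (horizontal axis), with exact 95% Poisson intervals as bars; grey points are naive, blue tumor-bearing and red tumor tissue. Fcgr1, Fcgr4, Fcgr3 and Fcgr2b are highest in tumor tissue (880, 143, 656 and 464 CPM), while Fcer1g lies between 3390 and 3844 CPM in all 7 libraries.

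The libraries held 617821 to 20844058 UMIs, with medians of 8841 to 12445 UMIs per cell, and 2 cell barcodes occurred in more than 1 library. Itgam, which encodes CD11b, stood at 257 to 293 CPM outside the tumor and 561 in tumor tissue, and was present in every cluster. Summed macrophage markers (8 genes, C1qa and Mrc1 among them) reached 7446 CPM in tumor tissue and 1057 to 3251 elsewhere. The neutrophil list (8 genes) summed to 334 CPM in tumor tissue, with 2 of the 8 at 0. It summed to 1403 in naive and 3806 in tumor-bearing blood, and to 2775 in naive and 4684 in tumor-bearing spleen. Bone marrow had the most, 8737 CPM in naive and 7811 in tumor-bearing mice. The B-cell list (8 genes) had 44.0 CPM in tumor tissue and 202 to 369 elsewhere. Mast-cell and basophil markers, whose cells also use Fcer1g, summed to at most 2.61 CPM in any library, and the 7 NK and T-cell genes in the table to 10.4 to 46.5.

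The comparison of tumor tissue with the tumor-bearing circulation asks how the receptors differ where myeloid cells meet the tumor. Fcgr1 was 4.90-fold (4.57 to 5.27) higher in tumor tissue than in tumor-bearing blood, 6.40-fold (5.96 to 6.88) higher than in spleen and 5.72-fold (4.68 to 7.08) higher than in bone marrow. Fcgr2b, the inhibitory receptor, was higher by 2.47-fold (2.30 to 2.65), 2.95-fold (2.76 to 3.16) and 4.15-fold (3.28 to 5.34) in the same order, and Fcgr4 by 2.10-fold (1.86 to 2.37), 2.83-fold (2.51 to 3.21) and 4.41-fold (2.85 to 7.23). Fcgr3 was 1.47-fold, 1.55-fold and 1.72-fold higher, short of the 2-fold used as a rule of size in place of a test. Fcer1g had ratios of 0.993, 1.03 and 1.02, and its direction changed with the scaling: without mitochondrial, ribosomal-protein and haemoglobin genes in the total it had 0.942 over blood and 0.968 over spleen, and with edgeR's TMM factors 1.14, 1.20 and 1.22.

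By that rule, 3 of the 5 genes were at least 2-fold higher in tumor tissue than in tumor-bearing blood and 0 were lower, where the shares of all 5648 measured genes were 10.9% higher and 9.44% lower. Against spleen the count was again 3 higher and 0 lower, beside 10.7% higher and 12% lower of 5752 measured genes, and against bone marrow 3 and 0, beside 12.2% and 12.1% of 5745. These 3 comparisons share the tumor library and are not independent of each other. Fcgr4 against blood lay at the edge of the rule: leaving mitochondrial, ribosomal-protein and haemoglobin genes out of the total put it at 1.99-fold. Fcgr3 against bone marrow came to 2.05-fold with edgeR's TMM scaling, which moved the median log2 ratio of all measured genes in the 3 comparisons from between -0.13 and -0.19 to between 0.06 and 0.07.

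The tumor also held more cells with several receptors at once. After each cell was thinned to 5000 UMIs (248 of the 4290 cells were shallower and left out), Fcgr1 and Fcgr4 were both detected in 37.6% of tumor tissue cells and in 6.90% to 11.4% of cells in the other libraries. All 4 receptor genes were detected in 29.8% of tumor tissue cells, against 1.73% to 4.86% elsewhere. Cells with Fcgr2b as the 1 receptor detected were scarce, at 0.811% in tumor tissue and 1.46% to 4.60% elsewhere. In tumor tissue 90.8% of cells had an Fcgr1 UMI, and 87.1% after thinning, at a median of 8841 UMIs per cell. No cell type known to lack the receptors was at hand in the tumor library to give the level of free RNA. Of its clusters, cluster 9 had the lowest shares after thinning: 52.6% of its 190 tumor tissue cells had Fcgr1, 10.5% Fcgr4, 6.32% both and 4.74% all 4 receptor genes. The highest were those of cluster 8, with both Fcgr1 and Fcgr4 in 71.4% and all 4 in 60.4% of 245 cells. Outside the tumor, cluster 12, whose neutrophil markers summed to 45244 CPM, had an Fcgr1 UMI in 38.6% of cells, and in 21.2% after thinning, at a median of 6233 UMIs per cell.

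Although both kinds of receptor gene were more abundant in the tumor, their proportion to each other was not far from that in blood. UMIs of Fcgr1, Fcgr3 and Fcgr4 together numbered 3.62 (3.54 to 3.70) per UMI of Fcgr2b in tumor tissue, 3.69 (3.42 to 3.99) in tumor-bearing blood, 3.90 (3.62 to 4.20) in tumor-bearing spleen and 5.09 (3.92 to 6.68) in tumor-bearing bone marrow. The naive libraries had 4.04 (3.83 to 4.27) in blood, 4.12 (3.57 to 4.77) in bone marrow and 4.02 (3.70 to 4.37) in spleen. A UMI counts a molecule once at its 3' end whatever the gene's length, but capture can differ between genes, so these proportions are compared between cells and are not ratios of receptor protein.

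What differed was the makeup of the activating side. Fcgr1 gave 41.1% of the UMIs of the 4 receptor genes in tumor tissue and 17.7% to 24.8% in the other libraries, and Fcgr3 gave 30.6% in tumor tissue and 50.6% to 58.0% elsewhere. Fcgr4 gave 6.66% in tumor tissue, within the 2.83% to 7.72% of the others, and Fcgr2b 21.6%, against 16.4% to 21.3%. By library sums, the leading receptor transcript was thus Fcgr3 in all 6 libraries outside the tumor and Fcgr1 in tumor tissue. Single clusters differed: Fcgr1 led in tumor clusters 3, 5, 8, 10 and 17, in cluster 3 narrowly (33.5% against 32.6% for Fcgr3). Fcgr3 led in tumor clusters 7 (42.1% against 34.2% for Fcgr1), 9 (58.9% against 19.6%) and 11 (34.3% against 28.8%), and Fcgr2b in cluster 13 (47.4%). Outside the tumor, Fcgr1 led in cluster 16 (56.7%).

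Within the tumor the receptors were far from even. The authors' clusters, made from the same genes, are referred to by number, and 9 of the 16 with counts held more than 90% tumor tissue cells. Fcgr1 was highest in tumor cluster 10 (1919 CPM), followed by clusters 8 (1529) and 5 (1132), then cluster 16 (891), which held 59 cells and 0 from the tumor, and the intervals of these 4 did not overlap. The low end was formed by cluster 12 (84.6 CPM, 49 UMIs). Over all clusters Fcgr1 spanned 22.7-fold and Fcgr4 19.0-fold by summed UMIs. By means over cells they spanned 17.9-fold and 20.9-fold, and after thinning 42.0-fold and 19.0-fold, so which of them ranged wider depended on the weighting. Fcer1g spanned the least, 1.66-fold, from 2706 CPM in cluster 17 to 4485 in cluster 10.

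Fcgr4 shared the upper end with Fcgr1: it was highest in clusters 8 (287 CPM), 10 (266) and 5 (152), and lowest in cluster 0 (15.1). Cluster 4, whose non-classical monocyte markers summed to 3680 CPM, the most of any cluster, had 81.7 CPM of Fcgr4. Outside the tumor this lay above the 15.1 to 72.3 of clusters 0, 1, 2, 6 and 12 but below cluster 16 (121). The intervals of clusters 4 and 2 overlapped (73.0 to 91.2 and 65.0 to 80.3). Cluster 4 had more than cluster 2 in naive blood (65.0 against 49.6 CPM) and naive spleen (69.3 against 33.8). In tumor-bearing spleen the 2 were close (89.8 against 84.0), and in tumor-bearing blood cluster 4 had less (121 against 144). The Fcgr3 level of cluster 4, 298 CPM, was the lowest of the clusters outside the tumor. Its Fcgr2b level, 115 CPM, lay beside the 116 of cluster 12 at the bottom of all clusters. Fcgr4 gave 13.5% of the receptor UMIs in cluster 4, the largest share of any cluster.

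Fcgr2b had another order. It was highest in cluster 13 (810 CPM, from 54 UMIs in 40 cells with a median of 1478 UMIs per cell), then in tumor clusters 8 (600), 11 (599) and 3 (594), whose intervals overlapped, and cluster 10 had 272. Cluster 11, whose macrophage markers summed to 15456 CPM, the most of any cluster, had 565 CPM of Fcgr1, far below cluster 10. Tumor cluster 9 was low in each of these: 197 CPM of Fcgr1, 32.5 of Fcgr4 and 184 of Fcgr2b, inside the range of the blood clusters, with 592 CPM of Fcgr3. Cluster 17, whose dendritic-cell markers summed to 14654 CPM, had the lowest Fcgr3 (190 CPM) and Fcer1g (2706 CPM) of all clusters.

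**Figure D2:**
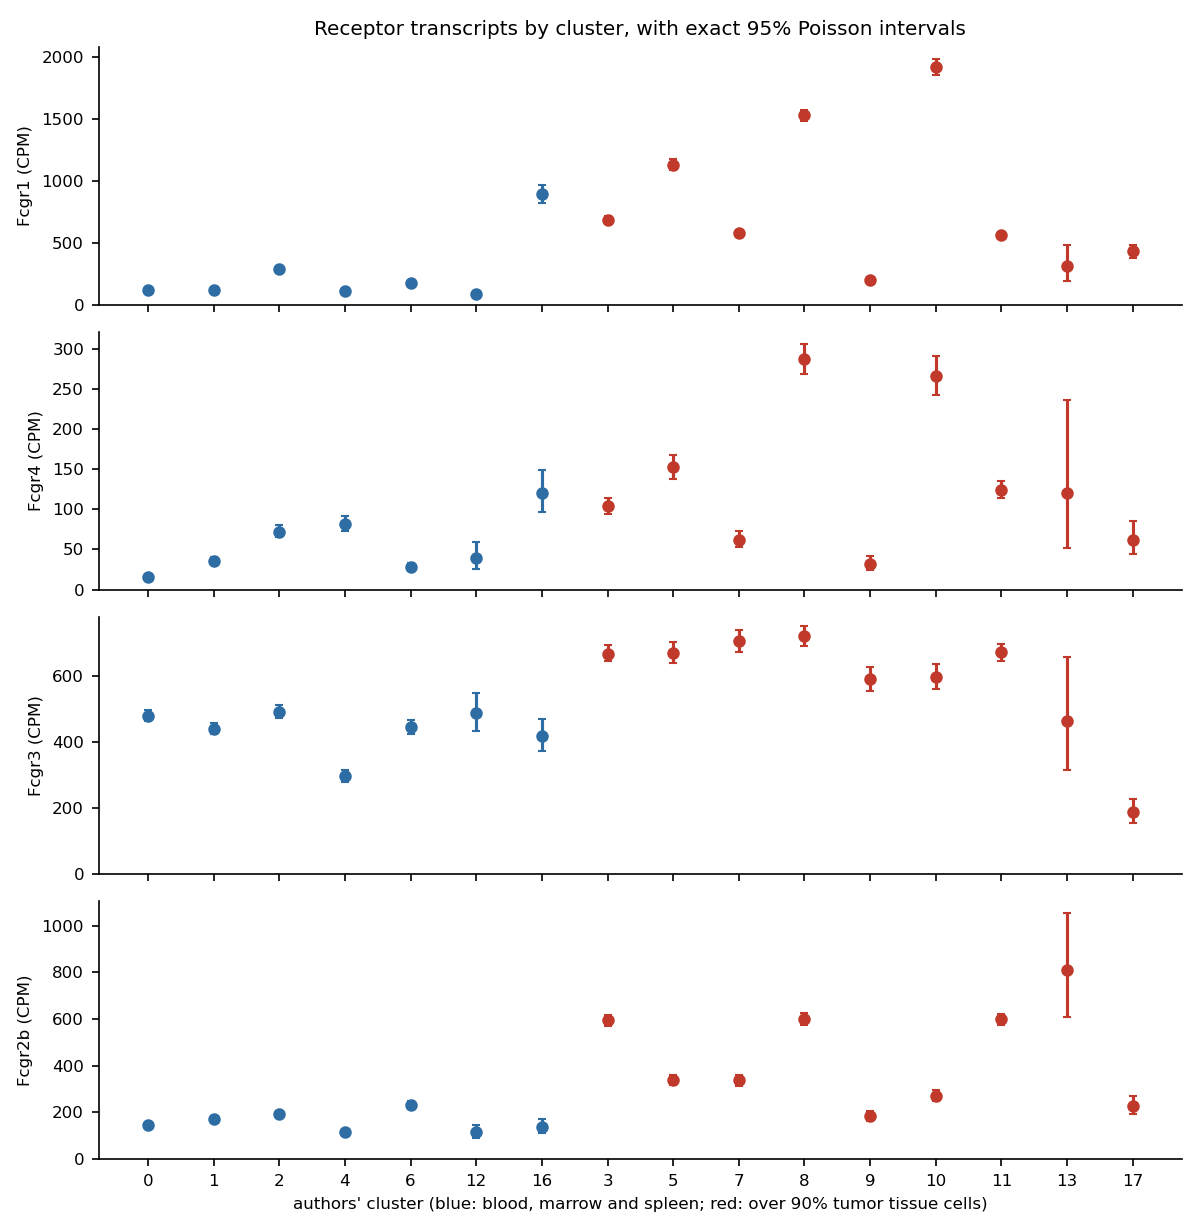
Levels of Fcgr1, Fcgr4, Fcgr3 and Fcgr2b (vertical axes, CPM from 0) in the 16 clusters with counts (horizontal axis), with exact 95% Poisson intervals; red clusters hold over 90% tumor tissue cells and blue ones cells of blood, bone marrow and spleen. Fcgr1 and Fcgr4 are highest in clusters 8 and 10, while Fcgr2b is at 594 to 600 CPM in clusters 3, 8 and 11 and at 272 in cluster 10.

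The proportion of activating to inhibitory transcripts, whose highest library was 1.40 times its lowest, differed 9.25-fold between the highest and the lowest cluster, and 4.52-fold without cluster 13, which holds 40 cells. It was 10.3 (8.34 to 12.8) in cluster 16 and 10.2 (9.31 to 11.3) in cluster 10, a circulating and a tumor cluster. Cluster 5 had 5.79 (5.38 to 6.23). At the other end stood clusters 6 (2.80), 3 (2.46), 11 (2.27) and 13 (1.11, from 60 and 54 UMIs). Cluster 8, high in both Fcgr1 and Fcgr2b, had 4.23, beside 4.22 in cluster 0, although its 4 receptor genes came to 3138 CPM together against 757 there.

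Cluster 6 was the circulating cluster with the most Fcgr2b (233 CPM, and 26.3% of its receptor UMIs). Its B-cell markers summed to 763 CPM, the most of any cluster, with 0 of 8 at 0, as in cluster 0. Its dendritic-cell markers summed to 3395 CPM, the most of any cluster outside the tumor. B cells use Fcgr2b as their Fc gamma receptor. The part of B-cell or dendritic-cell RNA in the Fcgr2b level of cluster 6 was not tested.

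**Figure D3:**
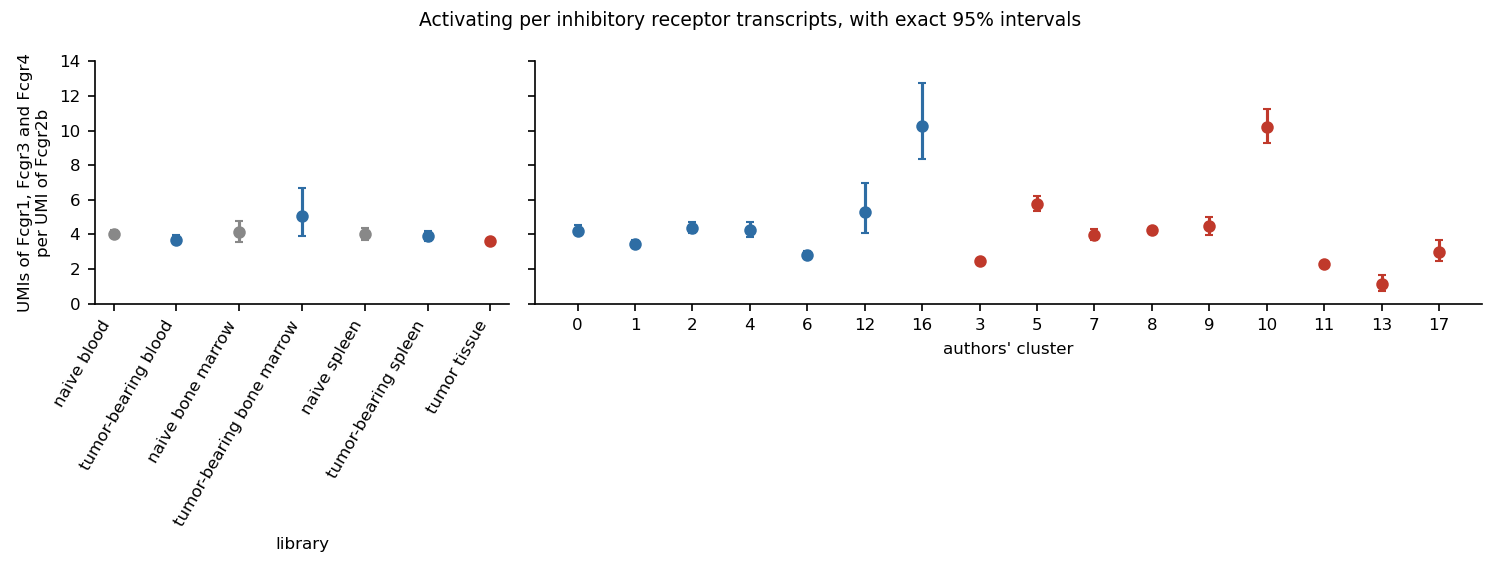
UMIs of Fcgr1, Fcgr3 and Fcgr4 together per UMI of Fcgr2b (vertical axis, from 0) in each library (left) and each cluster (right), with exact 95% intervals; colours are as in the plots of levels. Libraries lie between 3.62 and 5.09, clusters between 1.11 and 10.3.

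The genes whose levels most resembled each member across the 15 larger clusters, among 6653 genes, were different for the 4 receptors. For Fcgr1 they were Ms4a6d (Pearson correlation 0.97), the complement factor gene Cfb (0.97), Vps33a, Tcirg1 and Scimp (0.95 each). Fcgr4 shared Cfb (0.91) and had Car13 (0.92), Slfn4 (0.91), Sdc3 (0.90) and Ccdc23 (0.90). Fcgr2b was matched by Cenpb (0.98), Ecm1 (0.95), Tnfrsf11a, 1700017B05Rik (0.95 each) and the lysosomal protease gene Lgmn (0.94). Fcgr3 was matched by Fnip2 (0.95), the scavenger receptor gene Msr1 (0.91), Vcan, F10 (0.88 each) and Arhgap10 (0.87), and Fcer1g, which varied least, by Slc25a37, Zcchc2, Camk2d, Cers6 and Rapgef2 (0.87 each). The correlation of Fcgr2b with Fcer1g was 0.10 and with Fcgr1 0.69. Some of the matched genes were scarce, among them Car13, Fnip2 and Arhgap10, with at most 23.6, 25.8 and 31.6 CPM in any of these clusters. Clusters share libraries, so the correlations rank likeness and carry no test.

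The comparison of tumor-bearing with naive mice asks whether the receptors of circulating and marrow cells differ with a tumor elsewhere. None of the 5 genes reached 2-fold in either direction in blood, where 0.566% of 5300 measured genes passed it upward and 0.132% downward, in bone marrow (1.34% and 1.89% of 5505) or in spleen (0.332% and 0.0553% of 5426). The member with the largest ratio in each tissue was Fcgr4. It was 1.72-fold (1.48 to 2.003) higher in tumor-bearing than in naive blood, and 0.792% of measured genes had a higher ratio. With cells thinned to 5000 UMIs it was 1.43-fold higher there, below that interval. In spleen it was 1.40-fold (1.15 to 1.71) higher, with 2.52% of measured genes above it, and in bone marrow 1.47-fold, from 20 and 34 UMIs, with an interval of 0.80 to 2.62 that spans 1.

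The other receptors were at or below their naive levels or close to them. Fcgr1 had ratios of 0.846 (0.779 to 0.918) in blood, 0.795 (0.624 to 1.005) in bone marrow and 0.955 (0.859 to 1.06) in spleen. Fcgr3 had 1.005, 0.925 and 0.901 (0.849 to 0.956 in spleen), and Fcgr2b 1.09 (1.005 to 1.19), 0.732 (0.552 to 0.961) and 0.971. Fcer1g had 1.06, 1.11 and 1.06. The median log2 ratio of all measured genes was 0.01, 0.04 and 0.02.

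Fcgr4 was the 1 member that passed a test of the state over the 3 tissues together. The test used the same library sums as the ratios above and was added after they were seen, so it is not separate support. In edgeR's quasi-likelihood fit over the 6 naive and tumor-bearing libraries, with tissue as a block, Fcgr4 was 1.55-fold higher in tumor-bearing mice (log2 ratio 0.63, SE 0.11, Benjamini-Hochberg adjusted p = 0.00178), in 3 of 3 tissues. Over all 5863 genes tested, 2.29% were called higher and 1.59% lower. The other members did not pass: Fcgr1 had a log2 ratio of -0.21 (SE 0.08, adjusted p = 0.181), Fcgr3 -0.10 (adjusted p = 0.518), Fcer1g 0.08 (adjusted p = 0.595) and Fcgr2b -0.06 (adjusted p = 0.855) in the same edgeR fit. Without the blood pair Fcgr4 was 1.39-fold higher and no longer passed (edgeR adjusted p = 0.252), nor did it without the block (0.696). DESeq2 with the block had it 1.52-fold higher and gave no adjusted p. Whether the tissues came from the same mice is not given, so the p-value measures the spread between tissues, and an exact permutation of the 3 pairs cannot give a two-sided p below 0.25.

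A library sum can differ because its clusters are mixed differently, so the ratios were also taken within clusters of at least 20 cells in both libraries. In blood, Fcgr4 was higher in tumor-bearing cells in 4 of 5 clusters: 144 against 49.6 CPM in cluster 2 (2.91-fold, 2.16 to 3.93), 23.4 against 10.8 in cluster 0 (2.17-fold, 1.23 to 3.85), 42.4 against 22.5 in cluster 6 (1.89-fold, 1.07 to 3.27) and 121 against 65.0 in cluster 4 (1.86-fold, 1.40 to 2.47). Cluster 1 had 37.6 against 40.9 CPM. In tumor-bearing blood 1 cell of cluster 2 held 30 of the 308 Fcgr4 UMIs of the library. Leaving out the top cell of each library and cluster gave 2.27-fold (1.63 to 3.16) in cluster 2, and in cluster 6 an interval that spans 1 (0.837 to 2.96).

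In spleen Fcgr4 was above its naive level in 5 of 5 clusters, with the largest ratio again in cluster 2: 84.0 against 33.8 CPM, 2.49-fold (1.61 to 3.97). The other 4 clusters had ratios of 1.13 to 1.57 with intervals that span 1. Fcgr3 went the other way in spleen, below its naive level in 5 of 5 clusters (0.773 to 0.948), 4 of them with intervals below 1. In spleen cluster 4, Fcgr1 (81.0 against 133 CPM, ratio 0.610) and Fcgr2b (110 against 156 CPM, ratio 0.708) were lower as well, while Fcgr4 had 89.8 against 69.3 CPM there. Several marker lists moved with the state in both tissues. Beside the higher neutrophil list, non-classical monocyte markers stood at 1441 against 1219 CPM in blood and 1512 against 1260 in spleen, and classical monocyte markers at 7082 against 4931 and 5570 against 4402. Macrophage markers were lower, at 1800 against 3251 CPM in blood and 1499 against 2463 in spleen. Their part in the ratios of libraries was not tested. Without cluster 12, the cluster whose neutrophil markers summed to 45244 CPM, the ratio of Fcgr4 between libraries was 1.72 in blood and 1.46 in spleen.

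**Figure D4:**
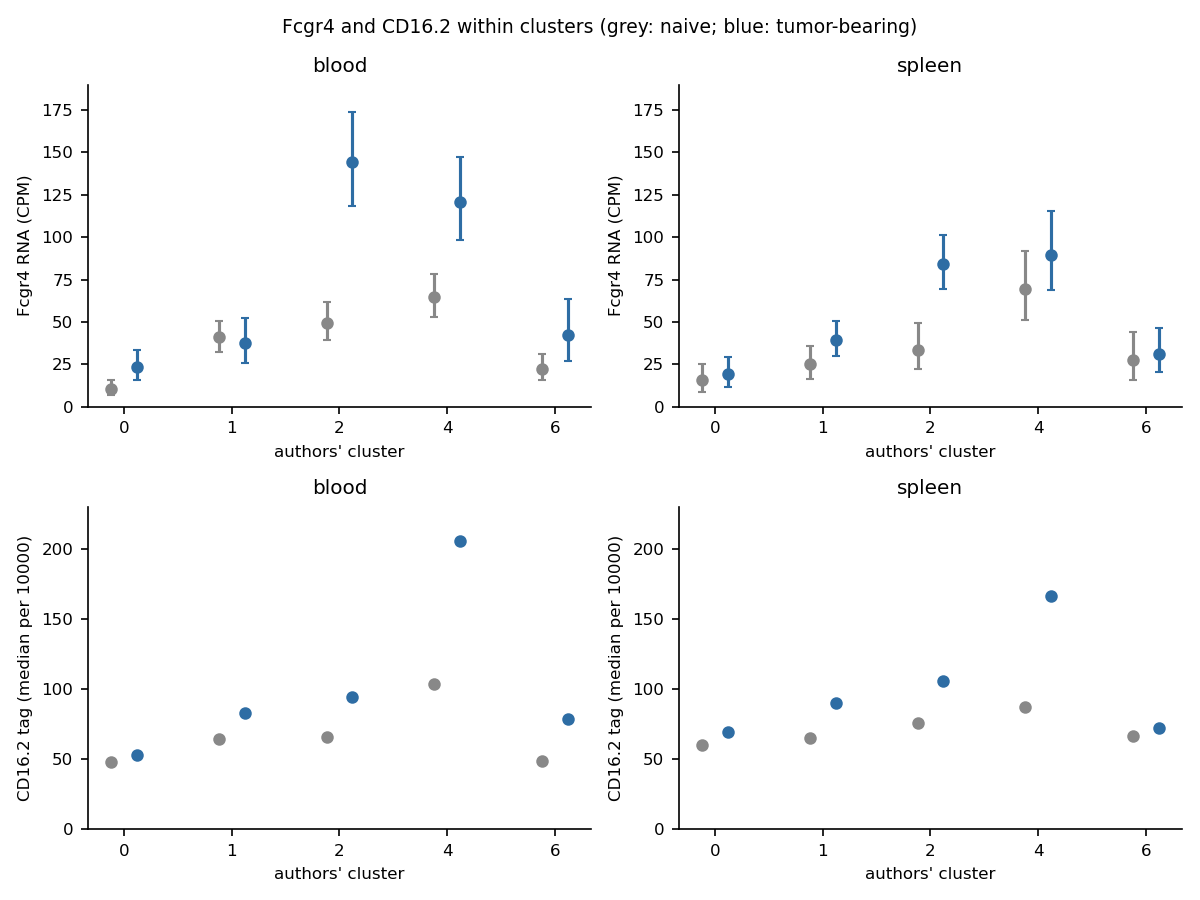
Fcgr4 RNA (top, CPM, with exact 95% Poisson intervals) and the CD16.2 tag (bottom, median over cells per 10000 tag counts) in the 5 clusters with at least 20 cells in both libraries of blood (left) and spleen (right); grey is naive and blue tumor-bearing. Fcgr4 is higher in the tumor-bearing library in 4 of 5 blood clusters and 5 of 5 spleen clusters, and CD16.2 in 5 of 5 of both. The median ratio of all 47 tags was 1.11 to 1.14 in the spleen clusters, above the ratio of CD16.2 in cluster 6.

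The antibody tags read the receptor proteins on the same cells. A tag is given per 10000 tag counts of its cell, as the median over cells, because the tag totals differed widely: the median cell had 6045 tag counts in tumor-bearing blood, 2351 in naive blood and 1602 in tumor tissue. None of the 47 tags is an isotype control, so the level of unspecific binding is unknown. CD16.2 had a median of 60.5 (quartiles 39.0 and 106) in naive blood and 86.3 (52.1 and 166) in tumor-bearing blood, a ratio of 1.43 that was the highest of the 47 tags, whose median ratio was 1.02. In spleen it had 68.8 (46.2 and 105) in naive and 92.2 (55.1 and 173) in tumor-bearing mice, a ratio of 1.34 that 2 other tags exceeded, beside a median of 1.15. In bone marrow the medians went the other way, 55.0 and 51.3, while the summed tag counts gave a ratio of 1.39. CD16-32 had a ratio of 0.805 in blood, rank 46 of the 47 tags, beside RNA ratios of 1.005 for Fcgr3 and 1.09 for Fcgr2b. In bone marrow and spleen it had 1.02 and 1.04, below the median ratios of all tags (1.11 and 1.15). CD64 had 0.981 in blood, 1.02 in bone marrow and 1.11 in spleen. No tag reached 2-fold in these 3 comparisons (0 of 47 each).

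Within clusters CD16.2 was higher in tumor-bearing cells in 5 of 5 blood clusters (ratios of medians 1.104 to 1.99) and 5 of 5 spleen clusters (1.08 to 1.90), most in cluster 4 of both tissues: 206 against 103 in blood and 166 against 87.3 in spleen. The tag thus had its largest ratio in cluster 4 and the RNA in cluster 2, where CD16.2 had 94.2 against 65.9 in blood and 106 against 75.6 in spleen. CD16-32 had within-cluster ratios of 0.727 to 0.967 in blood and 0.936 to 1.101 in spleen, and CD64 0.922 to 1.07 and 1.04 to 1.17. CD16-32 lay below the panel median in each of these clusters, and CD64 in each spleen cluster but cluster 2.

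In tumor tissue the CD16-32 tag stood out. Its median was 358 (quartiles 250 and 597) there, against 165 (128 and 228) in tumor-bearing blood, 242 (182 and 324) in spleen and 173 (136 and 235) in bone marrow. The ratios of 2.18, 1.48 and 2.08 had ranks 1, 3 and 2 among the 47 tags, whose median ratios were 1.43, 1.08 and 1.29. Of all tags 6.38%, 2.13% and 6.38% were at least 2-fold higher in the 3 comparisons, and 4.26%, 2.13% and 4.26% lower. CD64 had a median of 115 in tumor tissue and 81.6, 95.8 and 83.4 in tumor-bearing blood, spleen and bone marrow. Its ratios of 1.40, 1.20 and 1.38 had ranks 29, 9 and 15, beside Fcgr1 RNA that was 4.90 to 6.40 times higher. CD16.2 had 105 in tumor tissue, with ratios of 1.21 to blood, 1.14 to spleen and 2.05 to bone marrow. By summed counts they were 0.724, 0.8999 and 1.22, so the direction over blood and spleen, and the 2-fold over bone marrow, held for the medians and not for the sums. The authors' log values also had CD16.2 slightly lower in tumor tissue than in blood and spleen, by natural-log differences of -0.0087 and -0.022. Fcgr4 RNA was 2.10-fold higher than in blood.

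Across the 16 clusters the CD16-32 tag, scaled to each cell's tag total, followed Fcgr2b RNA more closely than Fcgr3 RNA. The Spearman correlation of median tag with CPM was 0.87 for Fcgr2b, 0.38 for Fcgr3 and 0.69 for the sum of both. With raw tag counts and UMIs per cell, which carry each cell's depth, the order was the opposite, 0.42 for Fcgr2b and 0.59 for Fcgr3. Cluster 11 had the highest CD16-32 median (1079), then clusters 13 (664), 3 (548) and 8 (540). These are the 4 clusters with the most Fcgr2b. The value of cluster 13 comes from 40 cells with medians of 106 tag counts and 8 CD16-32 counts per cell. Cluster 5, with nearly as much Fcgr3 RNA as cluster 11 (672 and 673 CPM) but 338 CPM of Fcgr2b, had a CD16-32 median of 277. Cluster 17 had the least Fcgr3 (190 CPM) but 227 CPM of Fcgr2b and a median of 326, against 215 in cluster 2 and 219 in cluster 4, which had more Fcgr3 (493 and 298 CPM) and less Fcgr2b (194 and 115 CPM).

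CD16.2 and Fcgr4 RNA had a Spearman correlation of 0.68, and CD64 and Fcgr1 RNA one of 0.68. Over the 7 clusters outside the tumor these were 0.75 and 0.07, and over the 9 tumor clusters 0.62 and 0.60. In both pairs a cluster stood off the trend: cluster 12 had a CD16.2 median of 134, below clusters 11 (154) and 8 (151) alone, at 39.7 CPM of Fcgr4 RNA, and cluster 16 had a CD64 median of 84.0, inside the 79.9 to 91.0 of the other circulating clusters, at 891 CPM of Fcgr1 RNA. Cluster 10, with the most Fcgr1 RNA, had a CD64 median of 110, below clusters 11 (137), 8 (130) and 3 (124). In cluster 4 the CD16.2 tag was uneven from cell to cell, with quartiles of 73.7 and 243 around a median of 123, and its summed counts (294 per 10000) were the highest of all clusters. Clusters share libraries and tag depth, so the correlations are descriptions without a test.

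**Figure D5:**
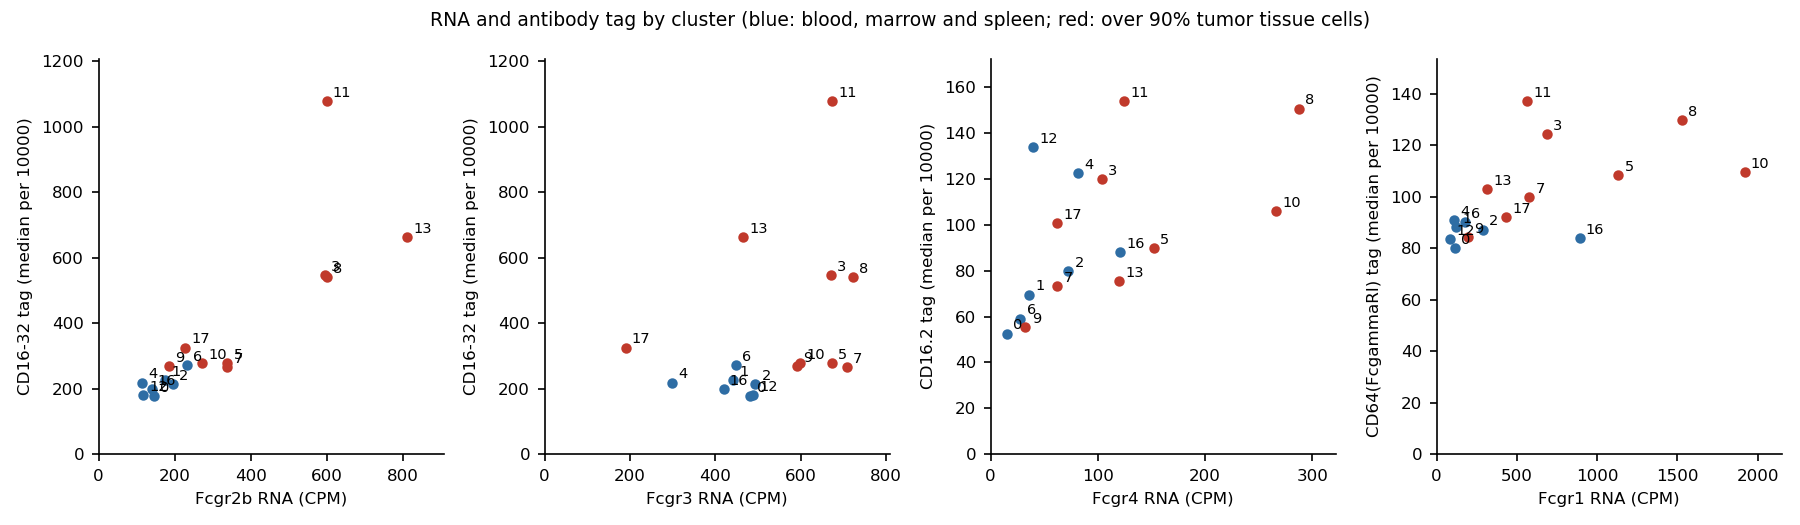
RNA level (horizontal axis, CPM) against the median antibody tag per 10000 tag counts (vertical axis) for 4 gene and tag pairs, 1 numbered point per cluster; red points are clusters of tumor tissue and blue ones of blood, bone marrow and spleen. CD16-32 is above 500 only in clusters 3, 8, 11 and 13, where Fcgr2b is at 594 CPM or more. Cluster 13 holds 40 cells with a median of 106 tag counts. Cluster 16 has 891 CPM of Fcgr1 at a CD64 median of 84.0.

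Cell by cell, the pairing of RNA and tag was clearest for Fcgr4. Within each of the 13 clusters with at least 20 cells on both sides, cells with an Fcgr4 UMI had a higher CD16.2 median than cells without one, by 1.26 to 2.45 times. In cluster 4 the medians were 219 in 153 cells with a UMI and 89.7 in 190 without, at 11002 and 10207 UMIs per cell, and in cluster 16 they were 142 and 59.0. For Fcgr2b and CD16-32 the tag was higher in cells with a UMI in 11 of 11 clusters, by 1.09 to 1.39 times. For Fcgr1 and CD64 it was higher in 8 of 9, with ratios of 0.883 to 1.14, and for Fcgr3 and CD16-32 in 2 of 3, with ratios of 0.951 to 1.02. Cells of all libraries are pooled in these values, and most cells had an Fcgr3 UMI, which left few clusters to compare.

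The other genes of Fc receptor signalling were followed as lists. The lists are named as groups, and the part of each gene was not checked. This holds for whether Lilr4b carries an ITIM and whether Cbl activates or restrains signalling. Between tumor-bearing and naive mice few members passed 2-fold, beside 0.566%, 0.332% and 1.34% of all measured genes higher in blood, spleen and bone marrow. In blood Clec4e, an Fcer1g-coupled lectin receptor, was 2.08-fold (1.80 to 2.39) higher among 9 measured ITAM adaptors and paired receptors. In spleen Cd300lf (2.47-fold) and Lilr4b (2.23-fold) were higher among the 12 measured genes of the ITIM receptor list. In bone marrow 0 passed. List medians of log2 ratios lay between -0.07 and 0.19 in these 3 comparisons, apart from the list of other Fc receptors, of which only Fcgrt, the neonatal Fc receptor gene, was measured (ratio 0.764 in blood).

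In tumor tissue against tumor-bearing blood, of 11 measured ITAM adaptors and receptors that pair with them, as the Fc receptors do, 5 were at least 2-fold higher and 1 lower, with a median log2 ratio of 0.38. All measured genes, the measure for this and the following lists, had 10.9% higher, 9.44% lower and a median of -0.13. Trem1 (16.1-fold), and the Fcer1g-coupled lectin genes Clec4n (15.2-fold), Clec4d (10.0-fold) and Clec4e (4.83-fold) led it. Of 13 genes of the ITIM receptor list 4 were higher, among them Cd72 (34.4-fold, 20.1 to 64.8), Lilr4b (9.33-fold) and Cd300lf (3.42-fold). In the same list 4 were lower, Ceacam1 by the most (5.84-fold lower). Of 18 genes of the activating signalling list 1 was higher (Lat2, an adaptor, 2.08-fold) and 2 lower (Cbl and Card9, both 2.01-fold lower), with a median of -0.49. Of 9 genes of the inhibitory signalling list 1 was higher (Dok2, 16.3-fold) and 3 lower, including Ptpn6, the SHP-1 phosphatase gene (2.32-fold lower), with a median of -0.73.

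The effector lists stood closer to all genes. Of 18 genes of phagocytic actin control 1 was higher (Gsn, gelsolin, 2.99-fold) and 1 lower (Myo1f, 2.08-fold lower), with a median log2 ratio of -0.01. Of the 5 subunit genes of the phagocyte oxidase, Cybb, the membrane subunit that makes superoxide, was 2.16-fold lower in tumor tissue (606 against 1306 CPM), and the median was 0.15. Against tumor-bearing spleen the ITAM list again had 5 of 11 higher and 1 lower, beside 10.7% and 12% of all measured genes, and Cybb was 2.51-fold lower. Against bone marrow it had 6 of 11 higher and 2 lower, beside 12.2% and 12.1%, and Cybb was 2.60-fold lower.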

How the data were processed

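Single cells were turned into RNA and antibody-tag libraries with a 10x Chromium 3' kit, per the labels' protocols. The authors deposited UMI counts for 25127 genes and tag counts for 47 antibodies in 4290 cells, normalized tag values and a metadata table of 4527 cells, of which 237 have no counts and were not used. The submitters' processing notes name Cell Ranger and, as build, mm10. Its version, the gene annotation and the filters that chose the cells are not stated there or in the labels. The deposited normalized tag values are on a natural log scale and equalled the natural log of 1 plus the tag count per 10000 of the cell. The deposited mitochondrial fraction of each cell had library medians of 2.85% to 3.46%. No further cell filter and no doublet caller was applied.

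Cells were assigned to libraries by the authors' metadata. UMIs were summed per library and cluster and divided by all UMIs of those cells. A ratio has an exact conditional binomial 95% interval, and genes with at least 30 UMIs in both libraries together and 20 CPM in 1 count as measured. Log2 ratios used a pseudocount of 1 CPM. Pairs of libraries were not tested, since each group is 1 library. The state was tested over the 6 naive and tumor-bearing libraries with edgeR's quasi-likelihood test and tissue as a block, a fit added after the data were seen, on genes with at least 30 UMIs in all and 20 CPM in 1 library. The interval code and this fit were tested on simulated data. Intervals cover counting error only. Versions were Python 3.11.15, scipy 1.17.1, pandas 2.3.3, edgeR 4.0.16 (TMM factors and the block fit) and DESeq2 1.42.0 (alternative to that fit).

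The members and lists were chosen with earlier results of these data known. Named genes are all 5 members and their tags, up to 4 genes of a list with the largest absolute log2 ratio in a comparison, and the 5 genes most like each member across clusters. Genes named from check lists beside a result (Itgam, Ifng, Ifngr1, Spi1) were chosen after values were seen. The CD64 tag was added to the tags of the rule because it stains the product of a member. Tag values are medians over cells. Promoter windows are from RefSeq, in which all 5 members matched.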

Additional observations from a re-analysis of the deposited data

Results flagged for a closer look

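Fcgr2b drew attention because its ratio of tumor-bearing to naive cells pointed in opposite directions in 2 tissues, with both counting intervals clear of 1: 1.09 in blood and 0.732 in bone marrow. The bone marrow value rests on 69 and 235 UMIs from 57 and 153 cells. With cells thinned to 5000 UMIs the ratios were 1.02 in blood and 0.541 in bone marrow. The difference between the tissues was not tested, since each library is 1 sample.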

How the results depend on the processing

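No library could be left out of a ratio of 2 libraries. The paired fit with tissue as a block called 134 genes higher and 93 lower in tumor-bearing mice. Leaving out each tissue pair gave 70 to 133 higher and 35 to 96 lower, lowest without blood; without the block it called 0 and 0 (355 genes at an unadjusted p under 0.05), DESeq2 with the block called 50 and 30, and no minimum on counts gave 226 and 165. Fcgr4 stayed higher in each of these, by 1.39-fold to 1.65-fold, and lost its call without blood and without the block, while DESeq2 gave it no adjusted p. Fcgr2b, not called, ran from 0.869 to 1.02 over the pairs left out, above 1 without bone marrow. The counts of members at least 2-fold higher or lower were within 1.5 times of the reported ones in 107 of 108 alternative counts. The 1 count outside that tolerance was tumor-bearing over naive blood at a threshold of 1.5-fold, where 1 member was higher (Fcgr4) in place of 0. The reported counts were 0 or 3, and a 3 that became 2 or 4 lay within the tolerance. Among these, tumor tissue over blood had 2 without mitochondrial, ribosomal-protein and haemoglobin genes in the total. Tumor tissue over spleen had 4 at 1.5-fold. Of the 210 alternative ratios of members, 186 lay within the reported interval and 24 outside it, none of them on the other side of 1 for a ratio of 2 or more. Those outside included 2 thinned ratios of tumor-bearing to naive mice, Fcgr4 in blood (1.43) and Fcgr2b in bone marrow (0.541). Fcgr4 in cluster 8 was 319 CPM as a mean over cells and 323 CPM after thinning, against 287. Fcgr2b in cluster 13 has no thinned value, since 1 cell there had 5000 UMIs. The tags depend more on scaling. The number of the 3 Fc receptor tags at least 2-fold higher by mean raw counts was 3 in tumor-bearing over naive blood (0 by medians), 0 in tumor tissue over blood (1 by medians), and 1 over spleen and 1 over bone marrow (0 and 2 by medians). Over bone marrow it was 1 by the authors' values and by summed counts, and 0 by centred log ratios, which also gave 0 over blood. Over spleen summed counts gave 1. The ratio of CD16.2 between tumor tissue and bone marrow was 2.05 by medians and 0.915 by raw counts, the 1 ratio of at least 2-fold that turned its direction. The block fit and its alternatives, centred log ratios, summed tag counts and leaving out the top cell within clusters were chosen after seeing the data. Depth limits bone marrow most, where 20 and 34 Fcgr4 UMIs gave an interval of 0.80 to 2.62.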

Other observations

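Background in interferon biology was looked at beside the members as values only. Ifng RNA was nearly undetected, with 1 UMI in all 7 libraries together, from tumor tissue. Ifngr1, a chain of the interferon gamma receptor, ran from 196 CPM in cluster 10 to 939 in cluster 4. Spi1, the PU.1 gene, lay between 552 and 1008 CPM in the 15 clusters of at least 50 cells.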
